A study of Mus musculus with 8 samples.

Results

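The genes described here encode the machinery that carries a hormone signal from a receptor to cyclic AMP (cAMP) and onward. They are the alpha, beta and gamma subunits of G proteins, the adenylyl cyclases that make cAMP, the phosphodiesterases that break down cyclic nucleotides, the catalytic and regulatory subunits of protein kinase A (PKA), the RGS proteins that switch G alpha subunits off, and the A-kinase anchoring proteins (AKAPs) that hold PKA in place. They were chosen by gene symbol alone, as symbols that start with Gna, Gnb, Gng, Adcy, Pde, Prkac, Prkar, Rgs or Akap with a digit where the family is numbered, without Rgs5 and Rgs11. This gave 111 of the 23372 genes in the count table. The rule itself was set with earlier results of these data known. The symbols also bring in 7 genes outside these families, Gnb1l, Gnb2l1, Pde12, Pde4dip, Pde6d, Rgs7bp and Rgs9bp, and 104 genes belong to the families by function.

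RNA was measured by sequencing of whole brown adipose tissue from 8 mice aged 10 weeks, on a C57BL/6 N background. The 4 controls carried floxed Lsd1 (replicates 511, 514, 517 and 518), and the 4 knockouts carried floxed Lsd1 and Ucp1-Cre (replicates 512, 513, 515 and 516). Lsd1, now named Kdm1a, encodes a histone demethylase, and the Ucp1 promoter directs Cre to brown adipocytes, so other cells of the tissue keep the gene. The controls are described without Cre, so effects of Cre itself and of the deletion cannot be told apart. The labels do not say how tissue was pooled, and each p-value is relative to the spread among these mice, which may in part be technical.

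Summed counts per library over all transcript rows ran from 33011022 to 38756920. With 1 row per gene, as used here, they ran from 23683936.5 to 28570627. Levels are in CPM, where every library is brought to the same total and adjusted by TMM, a factor per library that aligns the bulk of genes. A log2 change is the log2 of knockout over control from the fit, and levels of different genes are compared only as CPM per kilobase of transcript. Kdm1a fell in the knockouts, from 35.4 ± 1.51 to 13.1 ± 0.711 CPM (SD, n = 4 each, log2 change -1.43, edgeR adjusted p = 2.66e-05). Brown adipocyte markers summed to 19385 to 25987 CPM in controls and 13038 to 14847 CPM in knockouts, and 4 of 7 (Ucp1, Prdm16, Fabp4 and Lipe) fell. Their part in the lower levels described below was not tested. Skeletal muscle markers summed to 295 to 6087 CPM in controls and 7166 to 15929 CPM in knockouts, with control 514 lowest and knockout 512 highest. All 16 muscle markers had a log2 change above 0, and 1 of them, Myh2, passed the test. In edgeR's test 11 of the 16 had an unadjusted p under 0.05. The groups did not overlap for 12 (75.0%, against 35.5% of all tested genes). Macrophage markers rose in 4 of 7 tested, with sums of 97.3 to 183 CPM in controls and 171 to 261 CPM in knockouts. Schwann cell and nerve markers rose in 2 of 6 tested, with sums of 202 to 216 and 255 to 280 CPM, and Dbh was at 0. Summed smooth muscle and pericyte markers lay at 790 to 958 CPM in controls and 974 to 1274 CPM in knockouts, with 1 of 9 higher and 1 lower. None of the 7 endothelial, 6 fibroblast, 7 lymphocyte or 4 mast cell markers tested passed edgeR's test, and 2, 0, 1 and 0 of them had an unadjusted p under 0.05. Y-linked genes were detected in all 8 libraries.

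In brown fat, noradrenaline released from sympathetic nerves binds beta-adrenergic receptors, which act through the stimulatory subunit G alpha s to switch on adenylyl cyclase. The cAMP formed releases the catalytic subunits of PKA from their regulatory subunits, and PKA phosphorylates lipases, lipid droplet proteins and transcription factors that turn on heat production. Inhibitory G alpha i subunits, phosphodiesterases and RGS proteins restrain the signal.

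Of the 111 genes, 88 had enough counts to be tested and 23 did not. Of the tested genes, 22 (25.0%) differed between knockout and control at an adjusted p under 0.05 in edgeR's quasi-likelihood test, against 34.4% of all 14178 tested genes. Higher levels were called for 13 (14.8%, against 15.4% of all tested genes) and lower levels for 9 (10.2%, against 18.9%). The 4 knockout and 4 control values did not overlap for 24 of the 88 (27.3%, against 35.5% of all tested genes). A change of at least 2-fold was called for 4 genes, Gng2, Adcy5, Rgs9bp and Adcy10, against 6.89% of all tested genes. The median log2 fold change was 0.07 over the 88 genes and -0.01 over all tested genes. These shares lie at or below those of all genes, so they are no result about the set as a whole. Within families the called share ran from 0% of 4 PKA regulatory genes to 100% of 2 PKA catalytic genes, on few genes each. By other ways of scaling, modelling or choosing libraries, 11 of the 22 calls were made in all 16 alternatives: Akap17b, Gnb4, Gng2, Pde1b, Pde5a, Pde6d, Prkacb and Rgs9bp higher, and Adcy10, Gna13 and Rgs7 lower. The calls that did not hold throughout are marked beside each gene, and scaling by library size alone added 19 calls, all higher. In bulk tissue, fewer cells of a type and less RNA per cell cannot be told apart.

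**Figure D1:**
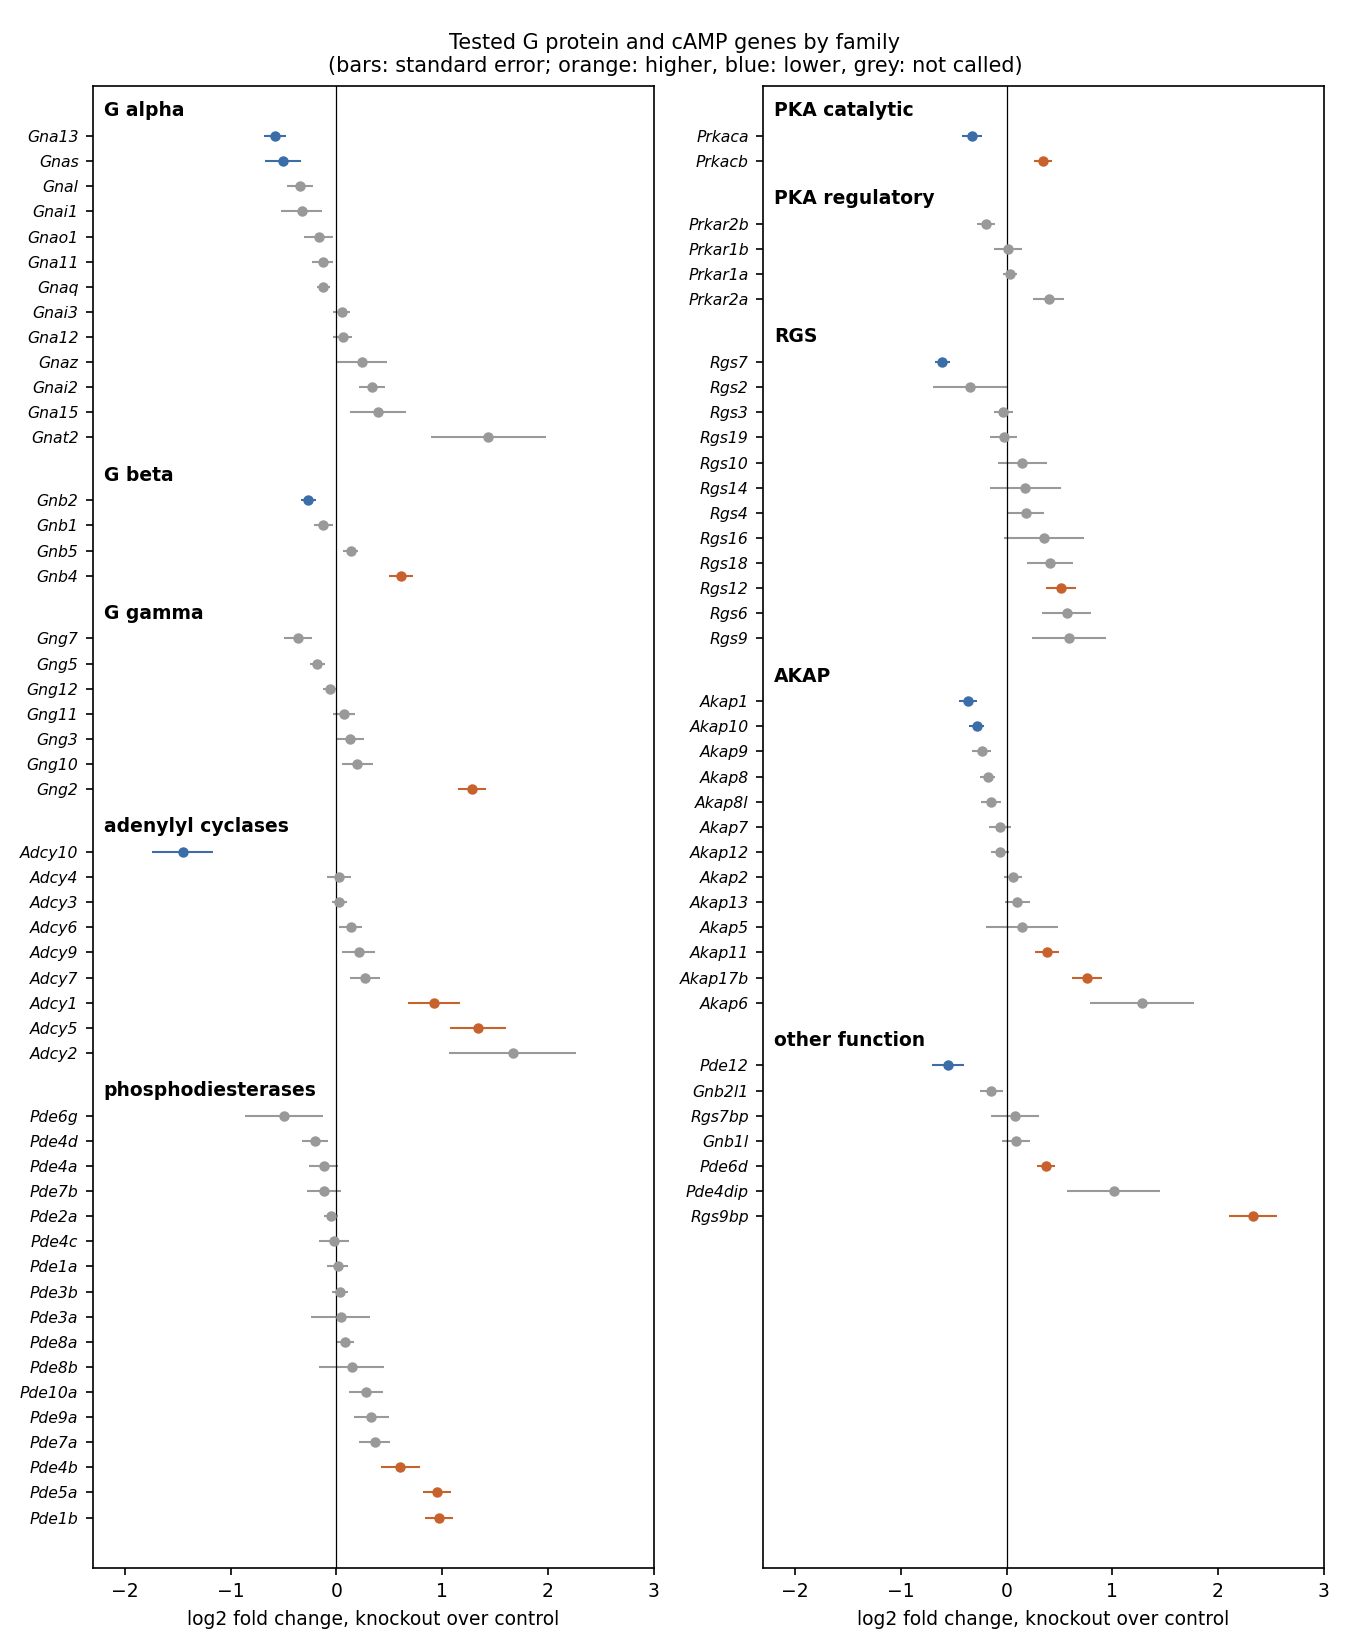
Log2 fold change of knockout over control for the 88 tested genes, grouped by family, with the standard error as a horizontal bar. The 13 genes called higher are orange, the 9 called lower are blue, and both PKA catalytic genes are called in opposite directions.

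Per kilobase, Gnas stood highest of the 88 genes, at 2441 CPM per kb in controls and 1725 in knockouts. Prkar2b followed at 567 and 496 CPM per kb, then the ribosome-associated scaffold Gnb2l1 at 242 and 219, Prkaca at 225 and 179, Akap1 at 180 and 140, and Gnb2 at 167 and 139. The most abundant phosphodiesterase was Pde3b at 62.2 and 63.8 CPM per kb, and the most abundant cyclase was Adcy6 at 51.9 and 56.9. Of these leading genes, Gnas, Prkaca, Akap1 and Gnb2 were called lower, and Prkar2b, Gnb2l1, Pde3b and Adcy6 were not called. None of these lower calls held throughout. Each ended with upper quartile scaling, with library size alone and with muscle score as covariate.

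The sequences just upstream of 4 genes are shown because they are the PKA catalytic pair, whose levels moved in opposite directions, and the largest called rise and fall among genes whose counted transcript begins at a RefSeq promoter entry. Each is 250 bases ending at the base before the transcript start, read 5′ to 3′ on the gene's strand, from RefSeq on GRCm38.p6 (the assembly of mm10). Capitals mark TGACG or its reverse complement CGTCA, the core of the cAMP response element TGACGTCA. They also mark GGGCGG or its reverse complement CCGCCC, the GC box. Prkaca is at chr8:83972728-83972977 (plus strand), Prkacb at chr3:146812947-146813196 (minus strand), Pde5a at chr3:122728908-122729157 (plus strand) and Adcy10 at chr1:165484933-165485182 (plus strand).
Prkaca: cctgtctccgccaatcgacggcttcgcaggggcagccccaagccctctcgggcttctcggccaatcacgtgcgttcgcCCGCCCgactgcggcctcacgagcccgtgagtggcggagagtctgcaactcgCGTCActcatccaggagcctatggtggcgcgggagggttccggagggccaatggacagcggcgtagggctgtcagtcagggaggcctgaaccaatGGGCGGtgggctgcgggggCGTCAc
Prkacb: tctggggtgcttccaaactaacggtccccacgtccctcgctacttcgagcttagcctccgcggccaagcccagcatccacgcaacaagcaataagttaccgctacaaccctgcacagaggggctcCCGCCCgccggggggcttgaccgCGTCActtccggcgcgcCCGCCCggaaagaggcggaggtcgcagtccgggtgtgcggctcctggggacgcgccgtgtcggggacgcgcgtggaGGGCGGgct
Pde5a: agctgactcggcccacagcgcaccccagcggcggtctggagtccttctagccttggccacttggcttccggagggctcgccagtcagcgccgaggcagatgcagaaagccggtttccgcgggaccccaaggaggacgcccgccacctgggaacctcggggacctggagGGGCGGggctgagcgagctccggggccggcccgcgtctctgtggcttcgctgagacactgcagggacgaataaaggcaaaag
Adcy10: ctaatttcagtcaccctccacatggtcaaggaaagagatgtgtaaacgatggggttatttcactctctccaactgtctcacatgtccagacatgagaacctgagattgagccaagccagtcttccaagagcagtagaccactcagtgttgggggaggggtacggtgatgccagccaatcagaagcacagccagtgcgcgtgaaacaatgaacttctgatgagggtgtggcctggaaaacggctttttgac

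The Prkaca window held 2 core motifs and 2 GC boxes, and the Prkacb window held 1 core motif and 3 GC boxes. The Pde5a window held 1 GC box and no core motif, and the Adcy10 window held neither. None of the 4 windows held the whole element. Among all 32851 RefSeq promoter windows of this length, searched on both strands, 17.8% held a core motif, 1.55% the whole element, which contains the core, and 32.7% a GC box. Of the 111 genes, 86 had a promoter entry and 59 had one at the start of the counted transcript. A core motif was present in 10 of the 59 (16.9%), the whole element in 1 and a GC box in 34 (57.6%). Matches of letters are descriptions and show no binding.

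G alpha subunits carry the signal from the receptor, and 13 of 16 were tested. None was called higher and 2 were called lower, Gnas and Gna13 (15.4% called, against 34.4% of all tested genes). Gnas encodes G alpha s, which stimulates adenylyl cyclase. In the control libraries 511, 514, 517 and 518 Gnas stood at 2894, 3992, 4930 and 4987 CPM, and in the knockout libraries 512, 513, 515 and 516 at 3333, 3118, 2598 and 2827 CPM. Control 511 lay among the knockouts and the other 3 controls lay above them. The means were 4201 ± 983 and 2969 ± 323 CPM (SD, n = 4 each), or a log2 change of -0.50 (SE 0.17, edgeR adjusted p = 0.0477). This call ended in 12 of the 16 alternatives. Leaving out any library except control 511 ended it, at log2 changes of -0.38 to -0.56 and adjusted p of 0.0569 to 0.13. It also ended under scaling by relative log expression (-0.49, adjusted p = 0.0578), upper quartile (-0.40, adjusted p = 0.102) or library size alone (-0.31, adjusted p = 0.211), summing the rows of a symbol (-0.50, adjusted p = 0.0527) and muscle score as covariate (-0.59, adjusted p = 0.108). Gnas produces several transcripts from one locus, and the counted one spans chromosome 2, 174330089 to 174346742 (mm10, plus strand), on which 85.4% of exon bases have an annotated gene, Gm20721, on the opposite strand. Counting did not use strand, so reads of these genes cannot be told apart. The row limited to the start region of the extra-large form, on chromosome 2 from 174297859 to 174300802, held 0 to 1 counts per library.

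Gna13 couples receptors to regulators of the actin cytoskeleton. It stood at 105, 127, 141 and 146 CPM in controls and 92.9, 89.4, 82.1 and 82.5 CPM in knockouts, so every control lay above every knockout. Its mean fell from 130 ± 18.3 to 86.7 ± 5.31 CPM (log2 change -0.58, SE 0.105, edgeR adjusted p = 0.00348). Gna13 lies on chromosome 11, 109362794 to 109401369 (mm10, plus strand).

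The inhibitory and Gq subunits gave no call. Gnai2, the most abundant Gi subunit per kilobase, stood at 200, 180, 167 and 133 CPM in controls and 193, 216, 232 and 218 CPM in knockouts (log2 change 0.34, SE 0.12, edgeR adjusted p = 0.056). Control 511 lay above knockout 512 and the other 3 controls lay below all knockouts. Scaling by relative log expression, by upper quartile or by library size alone, DESeq2, limma-voom and leaving out control 511 each called Gnai2 higher. The scarce Gnat2, also of the Gi and Go class, stood at 0.0754 to 0.878 CPM in controls and 0.631 to 1.52 CPM in knockouts (log2 change 1.44, SE 0.543, edgeR adjusted p = 0.0678). Library size alone, DESeq2, muscle score as covariate and leaving out control 514 each called Gnat2 higher. Gnal, the olfactory stimulatory subunit, stood at 13.7 to 16.4 CPM in controls and 10.1 to 13.8 in knockouts (adjusted p = 0.0546, called lower by DESeq2, with summed rows and without knockout 516), and Gnaq at 56.5 to 65.4 and 53.9 to 57.9 (adjusted p = 0.178). Gnas made up 90.1 ± 3.03% of the summed G alpha level per kilobase in controls and 86.8 ± 1.40% in knockouts (SD, n = 4 each), with the ranges overlapping.

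The beta and gamma subunits form a dimer that holds the alpha subunit at the membrane and signals in its own right. Among 4 tested G beta genes 1 rose and 1 fell, and among 7 tested G gamma genes 1 rose. Gng2 was at 7.48, 7.74, 7.84 and 5.39 CPM in controls and at 16.1, 17.9, 16.7 and 18.5 CPM in knockouts. The lowest knockout was well above the highest control, and the means of 7.11 ± 1.16 and 17.3 ± 1.09 CPM differed 2.43-fold (log2 change 1.28, SE 0.132, edgeR adjusted p = 0.000349). Gng2 spans chromosome 14, 19872559 to 19977249 (mm10, minus strand), and 23.4% of its exon bases face the gene model Gm48283 on the other strand.

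Gnb4 stood at 13.7, 15.3, 14.7 and 12.1 CPM in controls and 17.8, 22.6, 23.6 and 21.3 CPM in knockouts, without overlap. Its mean rose from 14.0 ± 1.39 to 21.3 ± 2.50 CPM (log2 change 0.61, SE 0.114, edgeR adjusted p = 0.00407). Gnb4 lies on chromosome 3, 32583528 to 32616535 (mm10, minus strand). Gnb2, the leading G beta gene with 60.0 ± 1.20% of the family's level per kilobase in controls, stood at 272, 277, 258 and 233 CPM in controls and 207, 218, 220 and 220 CPM in knockouts. The groups did not overlap and the mean fell from 260 ± 19.8 to 216 ± 6.38 CPM (log2 change -0.26, SE 0.0716, edgeR adjusted p = 0.0203). The Gnb2 call ended without knockout 512 (-0.25, adjusted p = 0.0502) or knockout 513 (-0.27, adjusted p = 0.052), with muscle score as covariate (-0.17, adjusted p = 0.214), and with scaling by upper quartile (-0.16, adjusted p = 0.133) or library size alone (-0.06, adjusted p = 0.496). Gnb1, the other abundant beta subunit, stood at 282 ± 35.4 and 259 ± 3.62 CPM and was not called (adjusted p = 0.323). Gng11, the gamma subunit with the highest level per kilobase, stood at 34.8 ± 1.46 and 36.6 ± 5.29 CPM (log2 change 0.08, SE 0.104, adjusted p = 0.605). Gng5 was below control in every knockout (19.6 to 22.2 against 18.6 to 18.9 CPM) but was not called (adjusted p = 0.0835). Gng7 stood at 19.2 to 31.2 CPM in controls and 19.5 to 21.3 CPM in knockouts (log2 change -0.36, SE 0.134, edgeR adjusted p = 0.0644). DESeq2, limma-voom and leaving out control 518 each called Gng7 lower.

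**Figure D2:**
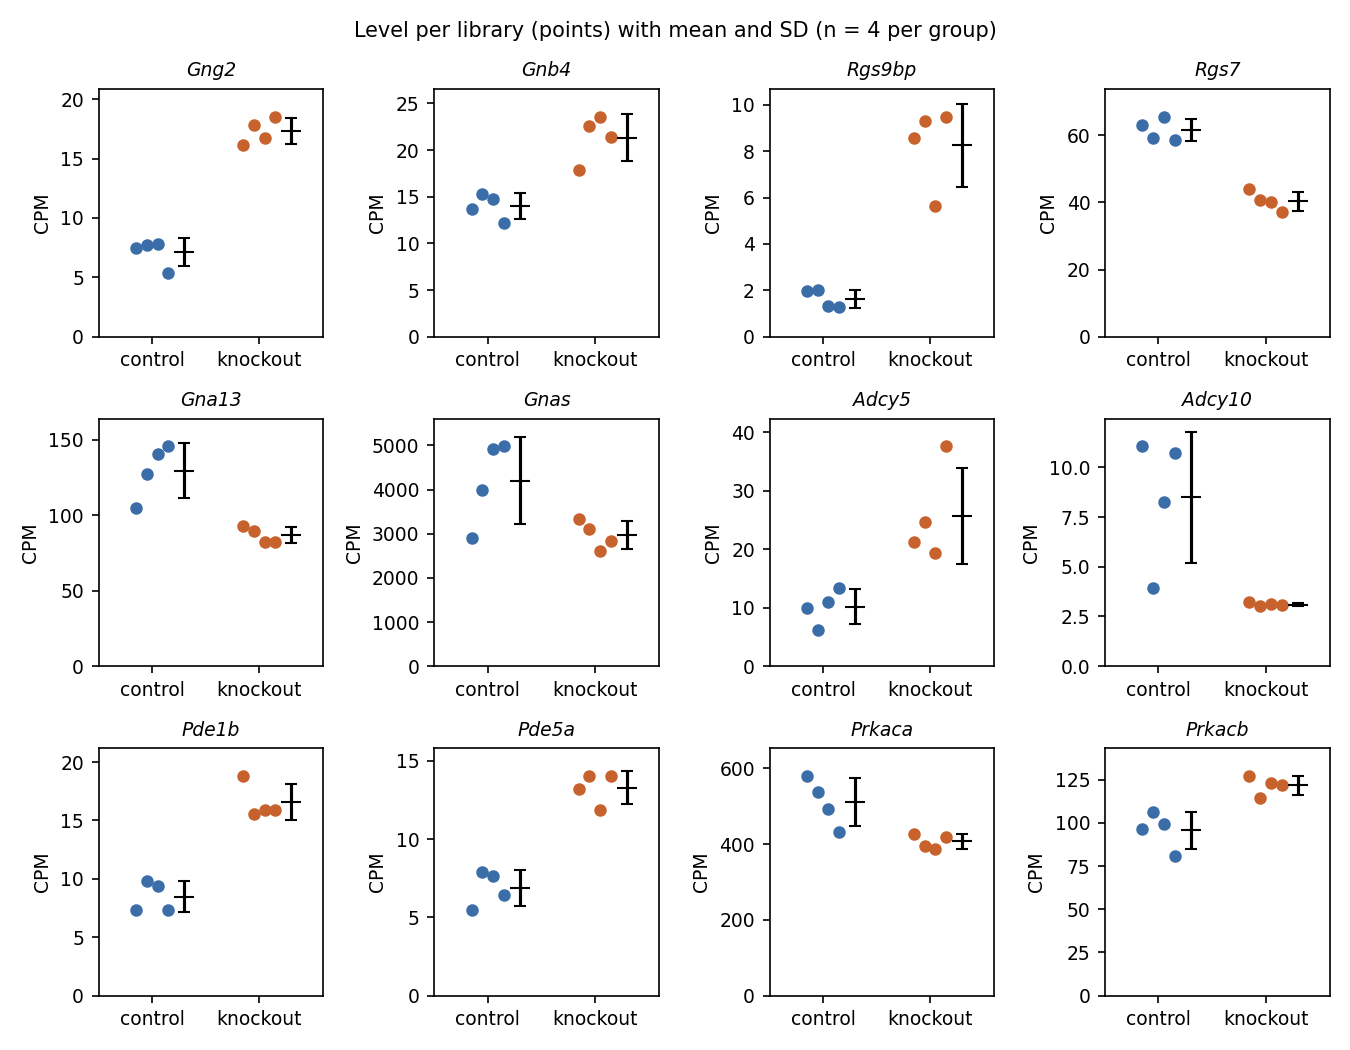
Level in CPM (scaled by TMM) of 12 called genes, with each library as a point and the mean and SD of 4 libraries as a bar, on axes that start at 0. The groups overlap in Gnas, where control 511 (2894 CPM) lies among the knockouts, and are apart in the other 11 genes.

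Adenylyl cyclases make cAMP, and 9 of 10 were tested, with 2 called higher and 1 lower (33.3%, against 34.4% of all tested genes). The 2 most abundant were not called. Adcy6 held 47.9 ± 4.71% of the family's summed level per kilobase in controls and 48.3 ± 0.481% in knockouts. It stood at 334, 352, 315 and 240 CPM in controls and 332, 342, 346 and 341 CPM in knockouts (log2 change 0.13, SE 0.111, edgeR adjusted p = 0.375), and control 518 was the lowest library. Adcy3, the cyclase known to respond to cold in brown fat, stood at 177, 153, 151 and 150 CPM in controls and 157, 164, 164 and 157 CPM in knockouts (log2 change 0.03, SE 0.0708, edgeR adjusted p = 0.803). With scaling by library size alone both Adcy6 (0.34, adjusted p = 0.0349) and Adcy3 (0.23, adjusted p = 0.0274) were called higher. Of the exon bases of Adcy3 29.2% have Cenpo on the opposite strand, and of those of Adcy6 10.0% have Gm29331 there.

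The called cyclases were scarce ones. Adcy5, the closest relative of Adcy6 and like it inhibited by calcium, stood at 10.0, 6.23, 10.9 and 13.4 CPM in controls and 21.2, 24.6, 19.3 and 37.7 CPM in knockouts. All knockouts lay above all controls and knockout 516 was highest. The means of 10.1 ± 2.98 and 25.7 ± 8.29 CPM differed 2.53-fold (log2 change 1.34, SE 0.266, edgeR adjusted p = 0.00539). With muscle score as covariate the log2 fold change of Adcy5 was 1.01 and the adjusted p was 0.0546. Adcy5 lies on chromosome 16, 35155636 to 35304549 (mm10, plus strand). Adcy1, a cyclase stimulated by calcium and calmodulin, was close to the lower limit of testing at 0.692 ± 0.0647 and 1.32 ± 0.393 CPM, 16 to 19 counts per control and 26 to 47 per knockout (log2 change 0.93, SE 0.247, edgeR adjusted p = 0.0193). Its call ended with muscle score as covariate (0.89, adjusted p = 0.125).

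Adcy10, the soluble cyclase that bicarbonate activates independently of G proteins, was the only cyclase called lower. It stood at 11.1, 3.91, 8.28 and 10.7 CPM in controls and 3.21, 3.01, 3.12 and 3.07 CPM in knockouts. The knockouts lay within a narrow band below every control, and control 514 was the control nearest to them. The means of 8.49 ± 3.30 and 3.10 ± 0.0848 CPM differed 2.74-fold (log2 change -1.45, SE 0.29, edgeR adjusted p = 0.00548), and leaving out any library kept the call, at log2 changes of -1.69 to -1.30. Adcy10 lies on chromosome 1, 165485183 to 165576773 (mm10, plus strand).

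Phosphodiesterases lower cyclic nucleotides, and 17 of 23 were tested, with 3 called higher and none called lower. The 17.6% called higher stand near the 15.4% of all tested genes, of which 18.9% were called lower. The abundant cAMP-lowering enzymes were not called. Pde3b, the insulin-activated enzyme of fat cells, stood at 322, 365, 315 and 306 CPM in controls and 340, 331, 320 and 350 CPM in knockouts (log2 change 0.03, SE 0.0741, edgeR adjusted p = 0.744). It held 31.7 ± 0.982% of the family's level per kilobase in controls and 32.0 ± 1.30% in knockouts. Scaling by library size alone called it higher (0.23, adjusted p = 0.0405). Pde4a at 131 ± 24.3 and 120 ± 12.9 CPM, Pde4d at 167 ± 16.0 and 145 ± 23.5 CPM, and the cGMP-stimulated Pde2a at 113 ± 4.21 and 109 ± 6.55 CPM were not called (adjusted p of 0.518, 0.231 and 0.591).

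Pde1b, which calcium and calmodulin activate and which hydrolyses both cAMP and cGMP, stood at 7.33, 9.82, 9.38 and 7.31 CPM in controls and 18.8, 15.6, 15.9 and 15.9 CPM in knockouts. The groups were apart, and the means of 8.46 ± 1.33 and 16.6 ± 1.53 CPM differed 1.96-fold (log2 change 0.97, SE 0.13, edgeR adjusted p = 0.000934). Pde5a, specific for cGMP, stood at 5.46, 7.90, 7.66 and 6.45 CPM in controls and 13.2, 14.0, 11.8 and 14.1 CPM in knockouts, again without overlap. Its mean rose from 6.87 ± 1.14 to 13.3 ± 1.04 CPM (log2 change 0.95, SE 0.136, edgeR adjusted p = 0.00124). Pde1b lies on chromosome 15, 103503298 to 103530052 (plus strand), and Pde5a on chromosome 3, 122729158 to 122859374 (plus strand, both mm10).

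Pde4b, specific for cAMP, stood at 15.4, 13.8, 22 and 23.5 CPM in controls and 30.2, 31.7, 28.9 and 22.8 CPM in knockouts. Knockout 516 lay below control 518 and the other 3 knockouts lay above all controls. The mean rose from 18.7 ± 4.80 to 28.4 ± 3.92 CPM (log2 change 0.60, SE 0.183, edgeR adjusted p = 0.0319). The Pde4b call ended without control 511 or 514 or knockout 512, 513 or 515 (log2 changes 0.48 to 0.59, adjusted p 0.0587 to 0.0846) and with muscle score as covariate (0.27, adjusted p = 0.359).

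PKA is a tetramer of catalytic and regulatory subunits. Both catalytic genes were called (against 34.4% of all tested genes), in opposite directions. Prkaca, the major one, stood at 581, 536, 492 and 432 CPM in controls and 428, 395, 388 and 419 CPM in knockouts. Every knockout lay below every control, although knockout 512 and control 518 were nearly equal. Its mean fell from 510 ± 63.6 to 407 ± 18.9 CPM (log2 change -0.33, SE 0.0959, edgeR adjusted p = 0.0283). Prkacb stood at 96.3, 106, 99.1 and 81.0 CPM in controls and 127, 115, 123 and 122 CPM in knockouts, without overlap. Its mean rose from 95.6 ± 10.5 to 122 ± 5.28 CPM (log2 change 0.35, SE 0.0864, edgeR adjusted p = 0.0144). The Prkacb call was made in all 16 alternatives. The Prkaca call ended in 8 of them: without control 511 or 514 or knockout 513, 515 or 516 (-0.26 to -0.34, adjusted p 0.0565 to 0.0777), with muscle score as covariate (-0.27, adjusted p = 0.181), and with scaling by upper quartile (-0.22, adjusted p = 0.11) or library size alone (-0.12, adjusted p = 0.278). Prkaca lies on chromosome 8, 83972978 to 83996445 (plus strand), and Prkacb on chromosome 3, 146729579 to 146812946 (minus strand, both mm10).

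The ratio of Prkaca to Prkacb within a library does not depend on scaling between libraries. Per kilobase it was 9.41 to 11.4 in controls and 5.98 to 6.53 in knockouts. Prkaca made up 91.0 ± 0.706% of the catalytic level per kilobase in controls and 86.4 ± 0.491% in knockouts (SD, n = 4 each), with ranges of 90.4% to 92.0% and 85.7% to 86.7% that did not overlap. The difference of 4.59 percentage points is a description without a test, and its size depends on how the rows of Prkacb are used. Prkacb has 4 transcript rows, and with these summed, which counts shared exons several times, the difference between knockout and control was -10.2 points.

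None of the 4 regulatory genes was called by edgeR, and 2 had an unadjusted p under 0.05. Prkar2a was called higher by DESeq2, limma-voom, upper quartile scaling, library size alone and without control 518, and limma-voom called Prkar2b lower. Prkar2b, the main regulatory subunit of fat, stood at 1828, 1950, 2104 and 1681 CPM in controls and 1676, 1667, 1584 and 1693 CPM in knockouts (log2 change -0.19, SE 0.0842, edgeR adjusted p = 0.105). Control 518 lay among the knockouts and the other 3 controls lay above them. With scaling by library size alone its log2 fold change turned to 0.01, and limma-voom called it lower (-0.22, adjusted p = 0.0377). Prkar2a stood at 27.4 to 43.9 CPM in controls and 39.9 to 54.7 CPM in knockouts (log2 change 0.40, SE 0.149, adjusted p = 0.0666), and Prkar1a at 277 to 306 and 281 to 322 CPM (adjusted p = 0.745). Prkar2b made up 84.0% to 86.2% of the regulatory level per kilobase in controls and 81.3% to 83.4% in knockouts. The summed regulatory level was 2.72 ± 0.310 times the summed catalytic level per kilobase in controls and 2.90 ± 0.108 times in knockouts, with the ranges overlapping.

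**Figure D3:**
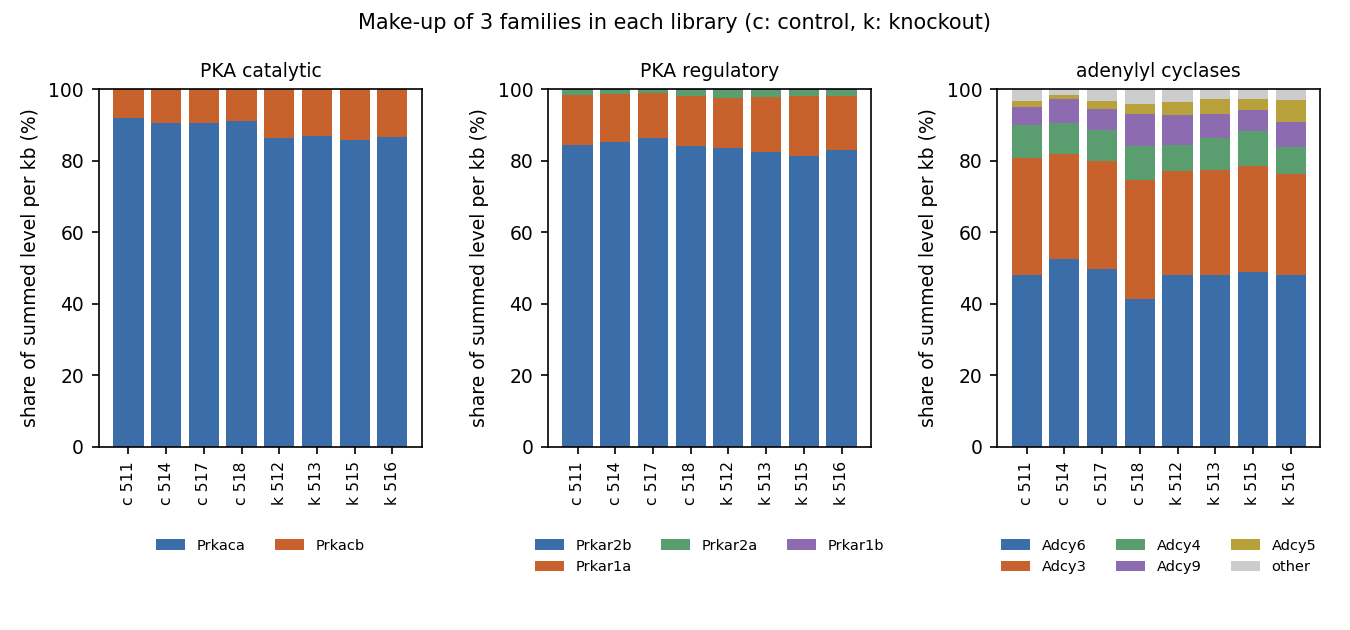
Share of each gene in the summed level per kilobase of PKA catalytic, PKA regulatory and adenylyl cyclase genes, in percent, with 1 stacked bar per library (c, control; k, knockout). The Prkaca part is 90.4% to 92.0% in the 4 controls and 85.7% to 86.7% in the 4 knockouts, while Adcy6 averages 47.9% and 48.3% of the cyclases.

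AKAPs tether PKA to sites in the cell. Of 13 tested AKAP genes (16 in all), 2 were called higher and 2 lower (30.8%, against 34.4% of all tested genes). Akap1, which anchors PKA at the mitochondrial outer membrane, was the most abundant, at 623, 744, 699 and 629 CPM in controls and 560, 551, 501 and 479 CPM in knockouts. The groups did not overlap, and the mean fell from 674 ± 57.9 to 523 ± 39.0 CPM (log2 change -0.37, SE 0.0872, edgeR adjusted p = 0.012). Its call ended with scaling by upper quartile (-0.26, adjusted p = 0.0514) or library size alone (-0.17, adjusted p = 0.188) and with muscle score as covariate (-0.27, adjusted p = 0.128). Akap1 made up 55.5% to 58.8% of the AKAP level per kilobase in controls and 49.6% to 53.1% in knockouts. Akap1 lies on chromosome 11, 88830792 to 88864586 (mm10, minus strand).

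Akap10, an anchor that like Akap1 can bind both types of regulatory subunit, stood at 31.6, 30.9, 32.7 and 35.7 CPM in controls and 26.9, 27.0, 27.0 and 26.6 CPM in knockouts (log2 change -0.28, SE 0.0675, edgeR adjusted p = 0.012), without overlap. Its call ended with scaling by upper quartile (-0.18, adjusted p = 0.063) or library size alone (-0.09, adjusted p = 0.409). Akap17b rose from 3.87 ± 0.445 to 6.57 ± 0.726 CPM (log2 change 0.76, SE 0.139, edgeR adjusted p = 0.00362), with 3.39 to 4.44 CPM in controls and 6.02 to 7.60 CPM in knockouts. Akap11, picked out after its value was seen, stood at 30.5, 27.7, 21.1 and 28.5 CPM in controls and 34.6, 36.2, 37.0 and 32.6 CPM in knockouts (log2 change 0.38, SE 0.112, edgeR adjusted p = 0.0281). The Akap11 call ended without knockout 512, 513 or 515 (0.35 to 0.38, adjusted p 0.0536 to 0.0739) and with muscle score as covariate (0.35, adjusted p = 0.144). Akap8 and Akap9 were below control in every knockout without a call (adjusted p of 0.0878 and 0.0657), and Akap8 was called without control 511.

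RGS proteins speed the hydrolysis of GTP by G alpha subunits. Of 12 tested RGS genes (18 in all), 1 was called higher and 1 lower (16.7%, against 34.4% of all tested genes). Rgs7, which pairs with Gnb5 and acts on Gi and Go, stood at 63.1, 59.1, 65.6 and 58.5 CPM in controls and 44.0, 40.7, 40.0 and 37.0 CPM in knockouts. The groups were far apart relative to their spread, and the mean fell from 61.6 ± 3.36 to 40.4 ± 2.85 CPM (log2 change -0.61, SE 0.073, edgeR adjusted p = 0.000582). Gnb5, its partner, stood at 28.0 ± 1.85 and 30.8 ± 1.47 CPM and was not called (adjusted p = 0.186), though upper quartile scaling and library size alone called it higher. Rgs7 lies on chromosome 1, 175059076 to 175492545 (mm10, minus strand).

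Rgs12 stood at 6.86, 5.83, 6.25 and 4.52 CPM in controls and 7.90, 8.95, 8.17 and 8.49 CPM in knockouts (log2 change 0.51, SE 0.141, edgeR adjusted p = 0.0212), without overlap. The Rgs12 call ended without knockout 513 (0.48, adjusted p = 0.0627) or 516 (0.51, adjusted p = 0.0533) and with muscle score as covariate (0.56, adjusted p = 0.0815). Rgs2, the most abundant RGS gene and a brake on Gq and on adenylyl cyclase, varied widely within both groups. It stood at 349, 307, 329 and 195 CPM in controls and 253, 106, 391 and 179 CPM in knockouts (log2 change -0.34, SE 0.351, edgeR adjusted p = 0.473). The highest and the lowest of the 8 values were both knockouts.

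Among the 7 genes that match the symbol pattern but lie outside these families, 2 were called higher and 1 lower. Their called share was 42.9%, against 34.4% of all tested genes. Rgs9bp, an anchor protein for RGS9, had the largest rise of all 88 genes. It stood at 1.95, 2.00, 1.32 and 1.28 CPM in controls and 8.58, 9.29, 5.64 and 9.50 CPM in knockouts. The lowest knockout lay above the highest control, and the means of 1.64 ± 0.388 and 8.25 ± 1.78 CPM differed 5.03-fold (log2 change 2.33, SE 0.229, edgeR adjusted p = 0.000286). Its partner Rgs9 was scarce, at 0.389 ± 0.194 and 0.579 ± 0.0676 CPM (adjusted p = 0.221). Rgs9bp lies on chromosome 7, 35578996 to 35585582 (mm10, minus strand). The other called genes here were picked out after their values were seen. Pde6d, a carrier of prenylated proteins, rose from 21.7 ± 2.09 to 28.0 ± 1.54 CPM (log2 change 0.37, edgeR adjusted p = 0.0113). Pde12, a mitochondrial exonuclease that trims poly(A) tails, fell from 26.2 ± 4.29 to 17.9 ± 3.10 CPM (log2 change -0.55, edgeR adjusted p = 0.0222), a call that ended without control 518 (-0.43, adjusted p = 0.0559) or knockout 516 (-0.51, adjusted p = 0.0633) and with scaling by library size alone (-0.35, adjusted p = 0.116).

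Adcy2, Akap6 and Pde4dip, which skeletal muscle also expresses, had high knockout values without a call in the reported fit and were picked out after their values were seen. Adcy2 stood at 1.48, 0.160, 1.41 and 3.47 CPM in controls and 8.26, 4.44, 3.83 and 4.34 CPM in knockouts (log2 change 1.67, edgeR adjusted p = 0.0583). Akap6 stood at 3.04, 0.798, 2.42 and 5.20 CPM in controls and 11.5, 7.26, 4.89 and 4.34 CPM in knockouts (1.28, adjusted p = 0.0718). Pde4dip stood at 171, 97.3, 131 and 352 CPM in controls and 647, 363, 299 and 208 CPM in knockouts (1.01, adjusted p = 0.103). Adcy2 was called higher by upper quartile scaling, library size alone, DESeq2, limma-voom and without control 514 or 518. Akap6 was called with library size alone, DESeq2, limma-voom and without control 518, and Pde4dip with limma-voom and without control 518. With muscle score as covariate none of these 3 was called and the direction of Akap6 turned. In all 3 the lowest library was control 514 and the highest knockout 512, the libraries with the lowest and highest summed muscle markers (295 and 15929 CPM).

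**Figure D4:**
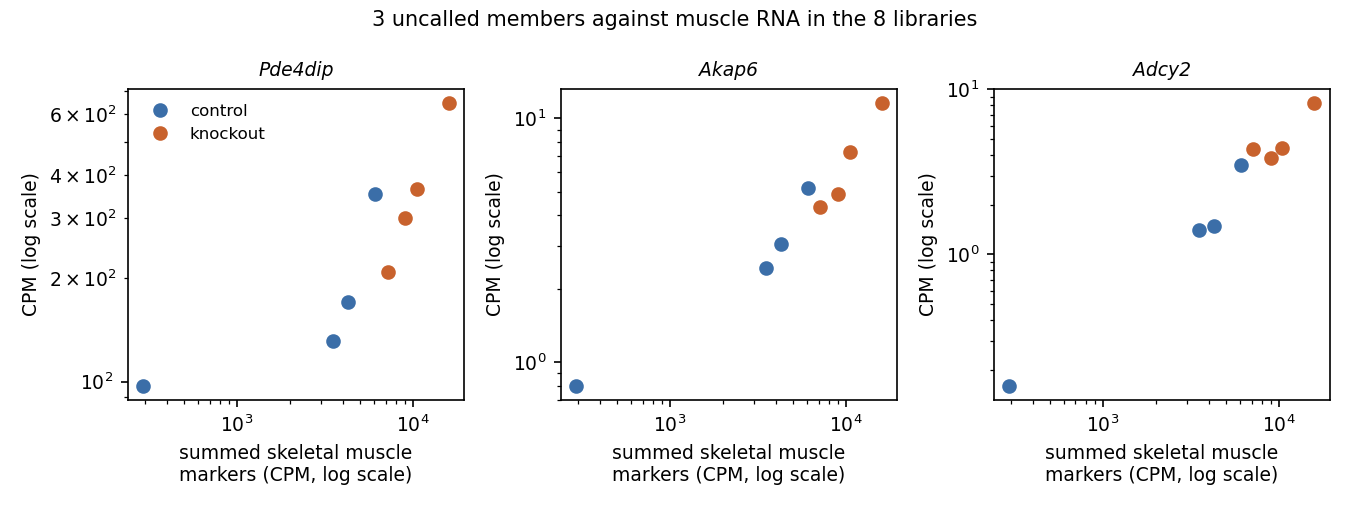
Level of Pde4dip, Akap6 and Adcy2 in CPM against the summed level of 16 skeletal muscle markers in CPM, with 1 point per library and both axes on a log scale. Control 514 (295 CPM of muscle markers) is lowest and knockout 512 (15929 CPM) is highest in each panel.

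With a muscle score as covariate 14 of the 88 genes were called, 13 of them among the 22. The 9 calls that ended were Adcy1, Adcy5, Akap1, Akap11, Gnas, Gnb2, Pde4b, Prkaca and Rgs12, and Gnat2 was called in addition. Summed muscle markers and genotype went together without overlap, so their parts in these results cannot be told apart. The part of the macrophage and Schwann cell markers was not tested.

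The 23 untested genes reached at most 0.642 CPM and 15.5 counts in any library. They include the photoreceptor subunits Gnat1, Gnb3, Pde6a, Pde6b, Pde6c and Pde6h, the taste subunits Gnat3 and Gng13, the sperm anchors Akap3 and Akap4, and Adcy8, Pde11a, Pde1c and 6 RGS genes. There were 2 genes with no count in any library, where 3 counts would correspond to 0.112 to 0.132 CPM, a limit for counting error only.

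Of the 111 genes, 20 passed an FDR of 0.05 in the authors' deposited table, 14 higher and 6 lower. There were 15 genes called both there and here, all in the same direction. The 7 called here only were Prkacb, Prkaca, Akap10, Akap11, Gnb2, Pde6d and Rgs12. The 5 called in the authors' deposited table only were Adcy2, Akap6, Gnat2, Pde4dip and Gnb3, the last not tested here.

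The rest of the pathway was followed in a list of 96 genes by role, of which 95 were in the table and 87 were tested. These genes were listed with earlier results of these data known, so their called shares are descriptions and no independent comparison. There were 15 higher and 13 lower, 32.2% in all against 34.4% of all tested genes. Of these 28 calls 13 were made in all 16 alternatives, and 11 ended with muscle score as covariate. Of 20 tested receptors 2 rose and 2 fell (20.0%, against 34.4% of all tested genes). The alpha-adrenergic receptor Adra1d rose (log2 change 0.52, edgeR adjusted p = 0.0217). Adra1a fell (-0.77, adjusted p = 0.00513), as did the Gi-coupled prostaglandin receptor Ptger3 (-1.18, adjusted p = 0.00152). Adrb3, the main beta-adrenergic receptor of rodent fat, stood at 413 ± 190 and 298 ± 52.8 CPM (-0.47, adjusted p = 0.256). The Adra1d call ended without knockout 512 or 513 (adjusted p 0.0519 to 0.0587).

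Of 15 tested receptor and G protein partners 2 rose and 3 fell (33.3%, against 34.4% of all tested genes). Gpsm1, a regulator of Gi subunits that acts without a receptor, rose from 4.81 ± 0.253 to 9.67 ± 0.748 CPM (1.01, edgeR adjusted p = 0.000416). Adrbk2, a receptor kinase, fell from 224 ± 44.1 to 115 ± 18.2 CPM (-0.96, adjusted p = 0.00225). Arrb2, an arrestin, rose by 0.50 (adjusted p = 0.00818), and Pcp2 and Pdcl fell by 0.68 and 0.32 (adjusted p of 0.0194 and 0.0112). The Arrb2 call ended with muscle score as covariate (adjusted p = 0.0526). The Pdcl call ended with that covariate, upper quartile scaling and library size alone (adjusted p 0.0619 to 0.277). The Pcp2 call ended with that covariate, library size alone, DESeq2 and without control 514 or knockout 513 or 515 (adjusted p 0.0504 to 0.178).

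Of 16 tested cAMP and PKA effectors and inhibitors 5 rose and 1 fell (37.5%, against 34.4% of all tested genes). Pkia, a PKA inhibitor peptide that is abundant in skeletal muscle, stood at 26.2, 3.87, 15.7 and 43.2 CPM in controls and 99.8, 91.0, 78.9 and 81.5 CPM in knockouts (1.98, edgeR adjusted p = 0.0204). All knockouts lay above all controls, and control 514, lowest in muscle markers, was lowest. Pkig, another PKA inhibitor, stood at 12.7, 8.46, 9.69 and 10.8 CPM in controls and 15, 14.8, 13.5 and 12.7 CPM in knockouts (0.43, adjusted p = 0.0358). Bves, Cap2 and Sik1 also rose, by 1.53, 1.32 and 0.69 (adjusted p of 0.0479, 0.0434 and 0.0225). Gsk3b fell by 0.85 (adjusted p = 0.00563), a call made in all 16 alternatives. Several of the rises were less stable. With muscle score as covariate the adjusted p was 0.418 for Pkig, 0.973 for Bves, 0.497 for Cap2, 0.167 for Sik1 and 0.0355 for Pkia. The Pkia call ended only without control 517 (adjusted p = 0.0536). Leaving out any library ended the call of Pkig except for controls 511 and 518, of Bves except for controls 514 and 518, and of Cap2 except for control 518 and knockout 516. The Bves call also ended with summed rows, and the Sik1 call without control 517 or knockout 513 or 516. The exchange factors for Rap that cAMP binds, Rapgef3 and Rapgef4, were not called (adjusted p of 0.645 and 0.641).

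Of 11 tested genes listed as PKA substrates or the stress-activated p38 MAP kinase arm 2 rose and 4 fell (54.5%, against 34.4% of all tested genes). The lipase Lipe fell from 2244 ± 197 to 1798 ± 181 CPM (-0.32, edgeR adjusted p = 0.0344), the lipase Pnpla2 from 4666 ± 376 to 3935 ± 165 CPM (-0.25, adjusted p = 0.0492), and its activator Abhd5 from 168 ± 38.9 to 88.8 ± 5.85 CPM (-0.92, adjusted p = 0.00298). Mapk14 fell by 0.55 (adjusted p = 0.0217), while its relatives Mapk13 and Mapk12 rose by 3.43 and 0.49 (adjusted p of 0.00027 and 0.0195). The calls of Abhd5 and Mapk13 were made in all 16 alternatives. The Pnpla2 call ended in 12 (adjusted p 0.0526 to 0.668) and the Lipe call in 8 (adjusted p 0.0609 to 0.37), both with muscle score as covariate, upper quartile scaling and library size alone. Leaving out any library except control 518 ended the Pnpla2 call, and leaving out control 517 or 518 or knockout 512, 513 or 515 ended the Lipe call. The Mapk12 call ended with muscle score as covariate and without knockout 512, 513 or 515 (adjusted p 0.0502 to 0.196), and the Mapk14 call with library size alone and without knockout 513, 515 or 516 (adjusted p 0.053 to 0.116). None of 10 tested CREB factors was called by edgeR, with 2 at an unadjusted p under 0.05, and Creb1 stood at 36.6 ± 2.33 and 33.7 ± 2.05 CPM.

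Of 15 tested genes known to rise with cAMP 4 rose and 3 fell. Bmp8b rose from 0.388 ± 0.264 to 5.36 ± 2.22 CPM (3.79, edgeR adjusted p = 0.000796), Nr4a1 from 31.9 ± 10.2 to 124 ± 63.5 CPM (1.96, adjusted p = 0.00357), and Fos and Gadd45g by 1.85 and 0.63 (adjusted p of 0.00293 and 0.0205). Ucp1 fell from 4481 ± 1200 to 1377 ± 161 CPM (-1.70, adjusted p = 0.000477), Gyk by 1.57 (adjusted p = 0.00356) and Elovl3 by 2.35 (adjusted p = 0.0176). Ppargc1a and Dio2 were not called (adjusted p of 0.941 and 0.772). The Elovl3 call ended without knockout 513 (adjusted p = 0.0536), and the Gadd45g call with muscle score as covariate and with limma-voom (adjusted p 0.0593 to 0.0655). The 26.7% called higher and 20.0% called lower, on 15 genes, stand against 15.4% and 18.9% of all tested genes. The called genes moved in both directions.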

How the data were processed

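Trizol-extracted RNA of 8 brown fat samples was sequenced by Illumina's protocol, per the labels' protocols. Alignment used TopHat version 2 and mm10, and HOMER and edgeR are also named, per the submitters' processing notes. The deposited values are estimated counts per RefSeq transcript over exons without use of strand, with transcript length in bases, per the file headers. The authors' own comparison gives log2 fold changes and p-values with FDR, per the file headers. Of the count values 36.9% were not whole, and counts were rounded. The 829 rows that name no gene (0.0608% to 0.0824% of a library's counts) were left out. For each of 3969 symbols with several rows the row with the highest total stood for the gene.

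Genes were kept by filterByExpr with a minimum count of 10, leaving 14178, and tested with edgeR 4.0.16 in R 4.3.3, quasi-likelihood, two-sided, TMM, no covariates, Benjamini-Hochberg over all tested genes, threshold 0.05. Controls had TMM factors of 0.898 to 0.961 and knockouts of 1.05 to 1.10. The SE is the log2 fold change divided by the square root of F. In counts simulated for knockout against control over 14223 genes, 0%, 20%, 88% and 100% of genes changed 1.25-, 1.5-, 2- and 4-fold were recovered. Only 200 genes were changed there, so its adjusted threshold was stricter than in the real data, where changes of 1.2- to 1.3-fold were called. The simulation also gave every gene the same relative spread between replicates (0.181), while the real fit estimated a spread per gene. Akap10 and Gnb2, called at such changes, had SEs of 0.0675 and 0.0716. The recovered shares therefore do not give the power for genes of smaller or larger spread. No pair of replicates agreed within sampling noise. Chi-square per degree of freedom was 13.1 to 36.7 between knockouts, 52.0 to 197 between controls and 94.7 to 189 between a control and a knockout. By this measure the controls differed more among themselves than the knockouts did, and some control pairs differed as much as pairs across groups. The labels name no batch.

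Overlap with other genes used GENCODE vM21. DESeq2 1.42.0 and limma 3.58.1 (voom with sample weights), other scalings, no filter, summed rows, a muscle score as a covariate and leaving out each library were the 16 alternatives. Genes described in full were Gnas, Adcy3, Pde3b, Prkaca, Prkar2b, Akap1 and Rgs2, the gene with the highest level per kilobase and up to 3 called genes with the smallest p in each family, called genes changed at least 2-fold without overlap, and up to 3 called genes per pathway list. The values of 1 called receptor gene are not reported here. Any other gene named was chosen with its value in view. The genes, lists and rules were chosen with earlier results of these data known.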

Additional observations from a re-analysis of the deposited data

Results flagged for a closer look

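Among 56 groups of 4 libraries examined for the named genes, 4 held a library whose gap to its nearest neighbour exceeded Dixon's 95% critical value, as a share of the group's range. Chance flags about 1 in 20 groups. For Adcy3, control 511 stood at 177.1 CPM and the other controls at 149.8 to 153.5 CPM. For Gnb2, knockout 512 stood at 206.8 CPM and the other knockouts at 218.2 to 220.1 CPM. For Gng2, control 518 stood at 5.39 CPM and the other controls at 7.48 to 7.84 CPM. For Pde1b, knockout 512 stood at 18.8 CPM and the other knockouts at 15.6 to 15.9 CPM. Leaving out each of these libraries kept the calls of Gng2 and Pde1b, and ended that of Gnb2 without knockout 512 (-0.25, edgeR adjusted p = 0.0502). The causes were not tested.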

How the results depend on the processing

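No paired analysis could be set up from the labels. The replicate numbers, 511 to 518, are unique to each library, and the labels do not say whether any mice were littermates. Of the 22 calls among the G protein and cAMP genes, 11 were made in all 16 alternatives. With scaling by library size alone, which moved the median of all genes by 0.20 on the log2 scale, 35 of the 88 genes were called, 32 higher and 3 lower. The pathway list then had 27 higher and 8 lower, and all genes 4077 higher and 930 lower. Upper quartile scaling, which moved the median by 0.10, gave 18 higher and 4 lower, with 1625 of all genes lower. The muscle covariate gave 14 calls, 9 higher and 5 lower, 17 in the pathway list with 8 higher, and 3010 over all genes, 1336 higher and 1674 lower. DESeq2 and limma-voom each gave 29 calls, 18 higher and 11 lower. Leaving out 1 library gave 16 to 25 calls, 10 to 17 higher and 6 to 9 lower, with 16 without knockout 513. The pathway list then had 18 to 33 calls, 8 to 15 of them lower, with 18 without knockout 513. Direction turned in 18 of the 88 genes with library size alone, 7 with upper quartile scaling, 8 with the muscle covariate, 2 with limma-voom and 2 to 6 with a library left out, none of them called in the reported analysis, and in none with the other alternatives. Among the 28 named genes these were 3, Adcy3 with the muscle covariate (-0.00293), Prkar2b with library size alone (0.00621) and Gng11 without knockout 515 (-0.00827, in a range of -0.00827 to 0.16 over the libraries left out). Over the 28 named genes, 11 lost a call in at least 1 alternative, and Gnas lost it in 12. The knockout minus control difference in Prkaca share was -4.59 points in the reported analysis, -10.2 with summed rows, where Prkacb's rows count shared exons several times, and -7.19 without division by length. The cause of the other changes was not tested.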
